A study of Mus musculus with 18 samples.

Results

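Regulatory T cells were followed in mouse skin that was stretched by an expander or left unstretched. They were taken as cells with at least 2 unique molecular identifiers (UMIs, the counted RNA molecules) over Cd3d, Cd3e and Cd3g, at least 1 UMI of Foxp3 and no UMI of Trdc. Of 47251 kept cells, 325 met this rule, 159 in the control arm and 166 in the expanded arm. Every mouse of both arms was operated on: the back skin was cut close to the tail and a tunnel towards the neck was opened beneath it. Only mice of the expanded arm then had a hydrogel expander placed at the neck. Skin was taken after 1, 2 or 4 days, and live cells were sorted as negative for the dye DAPI. Each arm gave 5 libraries: 2 sequencing rounds for day 1, 2 for day 2 and 1 for day 4. The titles of the RNA and hashing samples of control day 1, round 2 appear exchanged, and the RNA library was taken from the labelled library type and description. Mice of an arm and round were pooled in 1 tube, so tube and treatment cannot be told apart within a round. In all but the day 1, round 1 libraries each mouse carried its own hashing antibody, a DNA-barcoded label. Strain, sex and age of the mice were not given in the sources used here.

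Regulatory T cells are CD4 T cells that restrain other immune cells, and the transcription factor Foxp3 is required for their identity. They carry the high-affinity interleukin-2 receptor chain CD25, encoded by Il2ra, and the inhibitory receptor CTLA-4, and they depend on interleukin-2 made by other T cells. In skin they are known to live near hair follicles, to hold back inflammation and to take part in wound repair, and many of them carry the interleukin-33 receptor ST2, encoded by Il1rl1.

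The members were few in each library, and the libraries differed in depth. The control libraries of day 1 round 1, day 1 round 2, day 2 round 1, day 2 round 2 and day 4 held 1, 52, 19, 46 and 41 members. The matching expanded libraries held 7, 80, 21, 22 and 36. Day 1, round 1 therefore stood apart, and only the other 8 libraries, with 19 to 80 members and 105012 to 367242 member UMIs each, entered the tests across genes. The median member had 3466 UMIs in the control arm and 4162.5 in the expanded arm. A single expanded mouse of day 1, round 2 supplied 60 of the 80 members of its library. Of all kept barcodes, 263 occurred in more than 1 library, and 3 of these barcodes belonged to members.

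The label was checked against genes that the rule did not read. Ctla4 was detected in 96.0% of the members and Il2ra in 79.1%. Ikzf2, which encodes the regulatory T cell factor Helios, was detected in 95.7%, and Tnfrsf4, which encodes the costimulatory receptor OX40, in 88.6%. In 456 conventional alpha beta T cells (Foxp3 at 0, Trac detected, no Tcrg constant region) the same genes were detected in 48.9%, 38.8%, 49.1% and 36.0%. In 1649 gamma delta T cells (Trdc detected) they were detected in 1.88%, 24.4%, 43.5% and 1.88%. Cd4 was seen in only 33.8% of the members, against 20.4% of conventional and 0.667% of gamma delta T cells. Cd8a was seen in 0.923% of the members, against 18.9% of conventional and 0.485% of gamma delta T cells. Median depths were similar for members and conventional T cells, at 3836 and 3863.5 UMIs, and 4604 for gamma delta T cells. Stray Foxp3 molecules were rare where the gene should be silent: 9 of 1649 gamma delta T cells had one (0.546%), 5 of 15300 fibroblasts (0.0327%), 4 of 6114 macrophages (0.0654%) and 0 of 3338 keratinocytes, an exact 95% upper limit of 0.110%. The last 3 kinds were deeper, with medians of 10829, 10198.5 and 13452.5 UMIs. These markers were high in the members and the Foxp3 background was low, so the label is used below. In the files' build, mm10, Foxp3 lies on chromosome X (7573644 to 7595245, plus strand), Ctla4 on chromosome 1 (60887000 to 60915832, plus strand) and Il2ra on chromosome 2 (11642807 to 11693193, plus strand), by the GENCODE annotation.

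Most members rested on few Foxp3 molecules. One UMI was seen in 127 members, 2 in 83, 3 in 57 and 4 or more in 58. Members with a single Foxp3 UMI had Ctla4 in 93.7% and Ikzf2 in 94.5% of cells, and members with 4 or more had them in 100% and 94.8%. Just outside the rule lay 41 cells with Foxp3 but only 1 CD3 UMI, of which 95.1% had Ctla4, and 53 cells with Foxp3 and no CD3 UMI, of which 66.0% had Ctla4. Another 9 cells met the rule but for a Trdc UMI, and 33.3% of them had Ctla4. The largest group just outside was the 1666 cells that met the rule but for Foxp3, of which 23.8% had Ctla4. These 1666 cells were mixed: 456 had Trac and no Tcrg constant region, 128 had Tcrg only, 298 had both and 784 had neither. Shares of gated T cells below are therefore shares of a mixed population.

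Regulatory T cells made up a larger share of the gated T cells in the expanded library of every pair, but the difference between arms did not pass the test over libraries. In control skin they made up 1.05% (day 1, round 1), 12.9% (day 1, round 2), 19.0% (day 2, round 1), 21.6% (day 2, round 2) and 15.5% (day 4) of cells with CD3 and without Trdc. In expanded skin the shares were 7.69%, 14.7%, 26.6%, 35.5% and 25.7%. The expanded library was the higher one in 5 of 5 pairs, while the ranges of the arms overlapped. The mean share was 14.01% ± 7.97 (SD, n = 5) in control and 22.0% ± 10.9 (SD, n = 5) in expanded libraries, a difference of 8.03 percentage points (two-sided exact permutation test, p = 0.238, adjusted over 3 share tests 0.393). The smallest p that 5 against 5 libraries allow is 0.00794. With the libraries paired by day and round, the exact sign-flip p was 0.0625, the smallest that 5 pairs allow. Cells thinned to 2000 UMIs gave 9.96% against 19.8% (exact permutation p = 0.151). Without day 1, round 1 the means were 17.2% and 25.6% (exact permutation p = 0.143). The difference was 4.79 points without control day 1, round 1 and 4.67 points without expanded day 2, round 2.

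**Figure D1:**
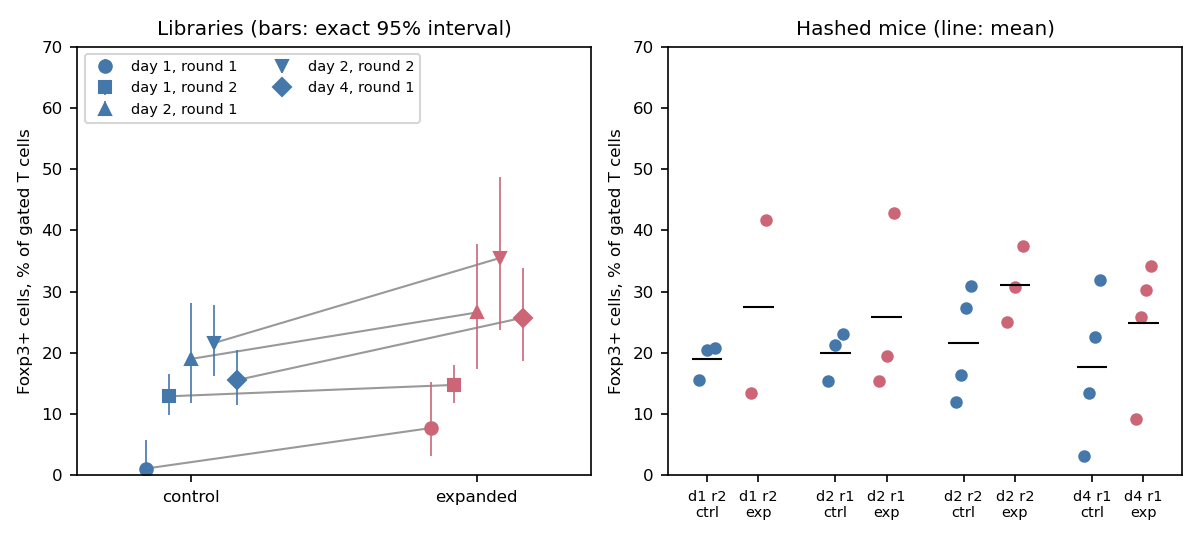
Share of Foxp3+ cells among gated T cells (percent, y axis) in control and expanded libraries joined by day and round (left; bars are exact 95% binomial intervals, for counting error only) and in hashed mice with at least 10 gated T cells (right; d is day, r is round, lines are means). The expanded library lies above its control in all 5 pairs, and mice of the arms overlap within rounds.

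The same comparison over mice gave a similar difference. Among 14 control mice the share ranged from 3.03% to 31.8% with a median of 20.6%, and among 12 expanded mice from 9.09% to 42.9% with a median of 28.1%. The ranges overlapped widely, and the expanded mean was higher in 4 of 4 rounds. The means were 19.6% ± 7.73 (SD, n = 14) and 27.1% ± 11.1 (SD, n = 12), and the difference within rounds was 7.71 points (two-sided permutation test within day and round, p = 0.0591). By day, the differences were 8.58 points on day 1 (3 against 2 mice), 7.81 on day 2 (7 against 6) and 7.15 on day 4 (4 against 4), with exact permutation p-values of 0.700, 0.159 and 0.400. The result lay at the edge of the threshold. It passed in thinned cells, with 14.2% against 24.1% (permutation p = 0.00821), and with another hashtag rule (p = 0.0497 by permutation). It also passed without the expanded mouse that held most T cells (p = 0.0242 by permutation), a setting that was not planned. That mouse had a low share, 13.4%, and the other counted expanded mouse of day 1 was at 41.7%. With a minimum of 30 gated cells per mouse, the result did not pass (exact permutation p = 0.124, 11 against 6 mice). Because mice of an arm shared a tube in each round, these p-values measure the spread between mice and not between tubes.

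Among all kept cells, regulatory T cells were a minor population. Their share was 0.569% ± 0.334 (SD, n = 5) in control and 0.882% ± 0.450 (SD, n = 5) in expanded libraries, higher in 4 of 5 pairs (exact permutation p = 0.262, adjusted 0.393). This difference of 0.313 points was 0.175 without control day 1, round 1, 0.193 without expanded day 1, round 2 and 0.474 without expanded day 1, round 1. Without the mouse that held most T cells it was 0.152 points, higher in 3 of 5 pairs. As a share of Ptprc-positive cells, which are of the blood-forming lineage, the means were 1.99% and 2.32% (exact permutation p = 0.683). As a share of members plus conventional T cells they were 35.8% and 48.4% (p = 0.119, exact permutation, higher in 4 of 5 pairs). Conventional T cells made up 0.794% and 1.03% of all cells in the 2 arms (exact permutation p = 0.738). Gamma delta T cells made up 2.69% and 4.79%, higher in 5 of 5 pairs (exact permutation p = 0.0476, not adjusted for the other shares). The depth of the gated cells differed too, since 70 control and 19 expanded gated cells had under 2000 UMIs, and the part of this difference in the unthinned shares was not tested beyond the thinned values above.

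Compared with conventional T cells of the same libraries, regulatory T cells had more RNA of 8 of 10 tested identity genes, of 4 of 10 suppressive effector genes and of 4 of 13 tissue genes. Il2, Il17f, Il22 and Klrk1 were nearly undetected in them. edgeR's quasi-likelihood test called 537 of 4945 genes (10.9%) at an adjusted p under 0.05, 206 higher (4.17%) and 331 lower (6.69%) in the members. The genes that the gates read were left out of this comparison. In all 8 libraries alike, 4.73% of the tested genes were higher and 3.78% were lower in the members. Values below are CPM, a gene's UMIs scaled to the summed UMIs of the members or conventional T cells of a library, and all adjusted p-values are from edgeR.

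Of the 15 genes listed for regulatory T cell identity, 10 could be tested, 8 were higher, none was lower, and the median log2 fold change was 1.55 against 0.03 over all genes tested. This list was drawn up because these genes mark such cells, so its direction checks the label and is not an independent result. Ctla4 lay between 897 and 3076 CPM in the members and between 383 and 1046 CPM in conventional T cells (log2 fold change 1.53 ± 0.20 SE, adjusted p = 0.000271). It was higher in 8 of 8 libraries. Il2ra lay between 426 and 1647 CPM against 107 to 467 CPM (1.73 ± 0.31, adjusted p = 0.00267). Tnfrsf4 lay between 875 and 2152 CPM against 116 to 717 CPM (1.88 ± 0.20, adjusted p = 6.36e-05). The lowest member sum of Il2ra lay under the highest conventional one, and for Tnfrsf4 the 2 kinds of cell did not overlap. Itgb8, whose integrin activates latent TGF-beta, averaged 254 CPM ± 104 (SD, n = 8) against 52.6 ± 37.6 (log2 fold change 2.24), and Ikzf4, which encodes Eos, a partner of Foxp3, 134 CPM ± 70.9 (SD, n = 8) against 34.9 ± 23.3. The costimulatory receptor gene Icos did not pass the test, at 1566 CPM ± 482 (SD, n = 8) against 1462 ± 377 (adjusted p = 0.995).

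**Figure D2:**
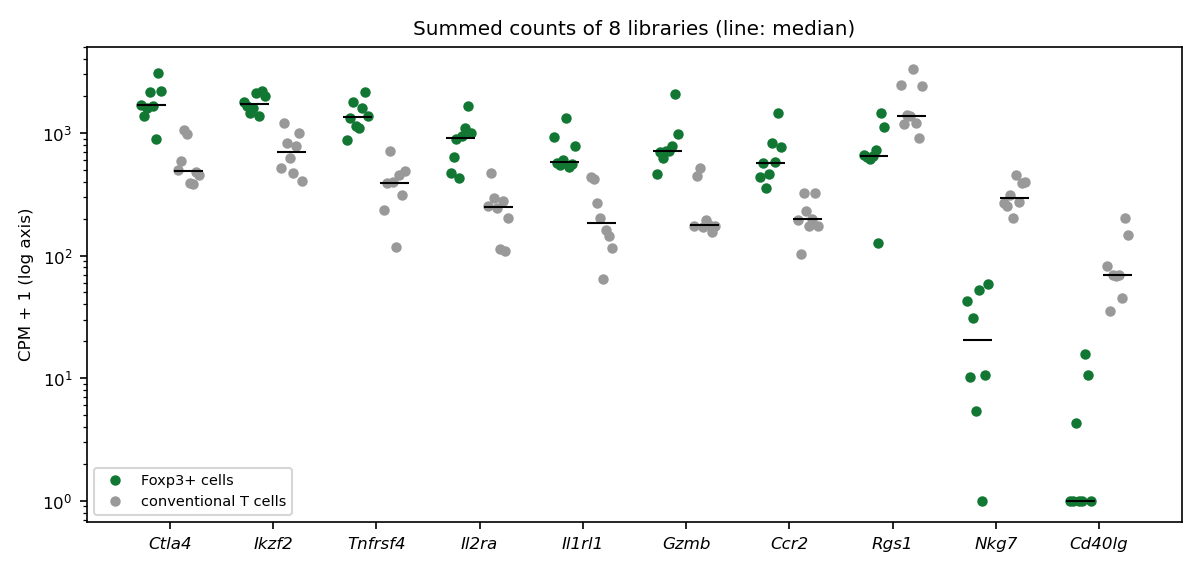
Summed expression (CPM + 1, log axis) of 10 genes in Foxp3+ cells and in conventional T cells, 1 point per library, with the median as a line. Ctla4, Tnfrsf4 and Ccr2 are higher in the Foxp3+ cells of each library, and Nkg7 and Cd40lg are lower in each.

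Effector genes were unevenly distributed. Of 13 suppressive effector genes, 10 were tested, and Gzmb, Ebi3, Havcr2 and Prdm1 were higher and Pdcd1 lower. Gzmb, which encodes the protease granzyme B, lay between 465 and 2085 CPM in the members and between 155 and 517 CPM in conventional T cells (log2 fold change 1.69 ± 0.29, adjusted p = 0.00215). The granzyme level of members was above that of conventional T cells in 8 of 8 libraries. Il10, the gene of an anti-inflammatory cytokine, averaged 60.4 CPM ± 40.7 (SD, n = 8) against 15.8 ± 15.3 and missed the threshold (adjusted p = 0.0586). Tgfb1 was 241 CPM ± 78.2 (SD, n = 8) against 323 ± 63.8 (adjusted p = 0.0666). Of 16 genes known from tissue regulatory T cells and type 2 immunity, 13 were tested, 4 were higher and Bhlhe40 was lower. Il13 was called lower too, but with 1 UMI in the members against 44 it entered only through the conventional T cells. Il1rl1 lay between 522 and 1310 CPM against 63.1 to 437 CPM (1.73 ± 0.34, adjusted p = 0.00489), with no overlap between the kinds of cell. Batf, a factor required for tissue regulatory T cells, averaged 271 CPM ± 122 (SD, n = 8) against 89.7 ± 33.7, and Maf 669 CPM ± 194 (SD, n = 8) against 295 ± 126. Areg, which encodes the epithelial growth factor amphiregulin, lay between 92.6 and 401 CPM against 11.9 to 290 CPM and did not pass the test (adjusted p = 0.137).

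Of 15 tested homing and retention genes, 7 were lower, 1 of which, Cxcr6, was lower in every library, and Ccr2, a chemokine receptor of inflamed tissue, was the 1 that was higher, at 682 CPM ± 352 (SD, n = 8) against 215 ± 75.4 (adjusted p = 0.00107). Rgs1 and Rgs2, which dampen chemokine receptor signals, averaged 748 CPM ± 392 (SD, n = 8) and 535 ± 348 against 1783 ± 853 and 1178 ± 434 (adjusted p = 0.00692 and 0.0123). Of 10 tested genes of resting and recirculating T cells, Ccr7, the lymph node homing receptor, was higher (log2 fold change 1.07, adjusted p = 0.0249), and Tcf7, Satb1, Klf2 and Bcl2 were lower. Tcf7, Bcl2 and, among the 7 homing genes, Itga4 were too low in the members to pass the filter on their own. They entered mainly through the conventional T cells, so their direction is not a separate result. All 14 tested immediate early genes had negative fold changes, with a median of -0.77, and 7 were called lower, among them Fosb, Nr4a1, Nr4a2 and Nr4a3. These genes are known to respond to tissue digestion as well as to antigen receptor signals.

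Most helper cytokine and cytotoxic genes were too low in the members to pass the filter on their own: 1 of 13 helper lineage genes and 2 of 8 cytotoxic genes did. Those that entered this comparison did so mainly through the conventional T cells, so their counts of UMIs are given in place of a count of calls. Il2, the cytokine on which regulatory T cells depend, gave 2 UMIs in the members of the 8 libraries and 131 in conventional T cells, which is 54.3 times more per UMI (95% exact interval 14.7 to 453, for counting error only). Il17f gave 1 against 312 UMIs, a ratio of 259 (46.1 to 10252). Klrk1, which encodes the killer receptor NKG2D, gave 1 against 1240 UMIs, a ratio of 1028 (184 to 40648). Cd40lg, the helper signal to B cells and dendritic cells, gave 5 against 167 UMIs and averaged 3.43 CPM ± 5.62 (SD, n = 8) against 89.3 ± 56.7. Trgv2 and Zbtb16, which are known from gamma delta and innate-like T cells, gave 1 and 3 UMIs against 53 and 81. The conventional gate thus also held RNA of such cells, and Cd8a was detected in 18.9% of its cells.

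Of 10 tested glycolysis and hypoxia genes, Pgk1, Pkm, Tpi1 and Hif1a were higher and Hk2 lower, with Hif1a, an oxygen-sensing factor, at 690 CPM ± 147 (SD, n = 8) against 381 ± 93.1 (adjusted p = 0.00494). In the interferon response list Ifi27l2a was called higher (log2 fold change 1.24 ± 0.26, adjusted p = 0.0074), and no gene of the 13 tested was called lower. Among the 10 largest called differences in the higher direction that held in every library were Gbp5 and Gbp3, guanylate-binding proteins induced by interferon-gamma. Gbp5 averaged 133 CPM ± 57.6 (SD, n = 8) against 22.0 ± 13.6, with a log2 fold change of 2.57 ± 0.27. Gbp3 averaged 278 CPM ± 158 (SD, n = 8) against 60.3 ± 25.8, with a log2 fold change of 2.04 ± 0.31. The others of the 10 were Itgb8, Zc3h12d, Ikzf4, Arl5a, Ankrd55, Tnfrsf4, Pou2f2 and Ly75, with log2 fold changes of 1.78 to 2.24. No cell cycle gene passed the test, although all 14 had positive fold changes with a median of 0.87. Mki67, for example, averaged 150 CPM ± 137 (SD, n = 8) against 78.5 ± 124 (adjusted p = 0.130).

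The number of genes called differed with the comparison cells. The Cd4-positive setting also had fewer cells and libraries, and the part of each in the count was not tested. Against the 93 conventional cells in which Cd4 was detected, of which 5 libraries had at least 10 cells, edgeR called 30 of 3799 genes, 7 higher and 23 lower. Of the 537 genes, 460 could be tested there, 454 kept their sign and 28 were called. The members were shared and the Cd4-positive cells are part of the conventional T cells, so agreement in sign was partly fixed in advance. Those 30 included Ikzf2, Gbp3 and Ccr7 (higher) and Rgs1 (lower). Il17f, Klrk1 and Cd40lg were among the 30 too, but they were nearly absent from the members and entered mainly through the comparison cells. Cd4 was also called lower in the members, but the comparison cells had been chosen by it. Ctla4, Il2ra and Il1rl1 had log2 fold changes of 1.20, 1.49 and 1.35 there, with adjusted p-values of 0.0626, 0.146 and 0.141. The glycolysis and hypoxia genes Hif1a and Pkm, at 0.77 and 0.79 against all conventional T cells, were at 0.29 and 0.11 there (edgeR adjusted p = 0.666 and 0.919). Against all 1666 Foxp3-negative gated cells, 1852 of 6602 genes were called.

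RNA of cell cycle genes was found in members of both arms. Mki67, a marker of dividing cells, was detected in 11.7% of control and 12.8% of expanded members after thinning. The list also holds Pcna, a replication and repair factor, which was detected in 29.1% of thinned members, so a share over the list is not a share of dividing cells. After thinning to 2000 UMIs, 20.5%, 11.8%, 21.7% and 27.0% of control members (day 1 round 2, day 2 round 1, day 2 round 2 and day 4) had at least 2 UMIs over 14 cell cycle genes. In expanded libraries the shares were 16.3%, 47.6%, 4.76% and 31.4%. The expanded libraries covered a wider range, which enclosed the controls. The means were 20.2% ± 6.33 (SD, n = 4) and 25.0% ± 18.6 (SD, n = 4), higher in 2 of 4 pairs (two-sided exact permutation test, p = 0.686, where 4 against 4 libraries cannot go below 0.0286). The difference turned to -2.77 points without expanded day 2, round 1 and to -0.951 points when 1 UMI sufficed. Among gamma delta T cells of the same libraries the shares were 10.9% to 17.9%. Unthinned, the means were 32.4% and 45.7% (exact permutation p = 0.143).

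Expansion did not change any single gene of the regulatory T cells beyond the threshold in the test across genes. With 4 control and 4 expanded libraries and day as a covariate, edgeR called 0 of 4231 genes (0% at an adjusted p under 0.05), with 281 at an unadjusted p under 0.05, and DESeq2 called Tnfaip6, Col1a2, Slfn2 and Ly6a. On simulated counts, 35% of genes changed by a log2 fold of 1 and 99% of those changed by 2 were recovered. Differences of about 1 could thus be missed. The simulation gave all genes the same spread between libraries and changed only well-counted genes, so these shares do not hold for all genes of the data. Col1a2, at a log2 fold change of -5.19, was not called by edgeR (adjusted p = 0.629). All values that follow are given as not called unless stated. A sum over members mixes how many cells hold a transcript and how much each holds. After thinning to 2000 UMIs, Il2ra was detected in 60.0% of control and 71.3% of expanded members, Ccr2 in 50.3% and 70.1%, and Areg in 29.0% and 15.9%, shares over pooled cells given without a test.

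Il2ra was higher in the expanded library of each pair. Its level in the members was 470, 638, 886 and 426 CPM in control libraries (day 1 round 2, day 2 round 1, day 2 round 2 and day 4) and 945, 1102, 1647 and 1004 CPM in expanded libraries. The 2 arms did not overlap, which held for 3.12% of all tested genes in the higher and 1.04% in the lower direction. The log2 fold change was 0.92 ± 0.22 (SE), with an unadjusted p of 0.00186 and an adjusted p of 0.629. Across 20 other settings the log2 fold change lay between 0.67 and 1.05, and it was called in 1 of them. Foxp3 itself, which chose the cells, lay between 288 and 484 CPM in control and between 288 and 629 CPM in expanded libraries. Ctla4 lay between 1360 and 2157 CPM and between 897 and 3076 CPM, with a log2 fold change of 0.14 ± 0.32. Of the 11 tested identity genes, Il2ra, Tnfrsf4 and Tnfrsf9 were higher in all 4 pairs and none was lower in all 4. Among all genes tested, 11.5% were higher and 7.56% were lower in all 4 pairs.

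**Figure D3:**
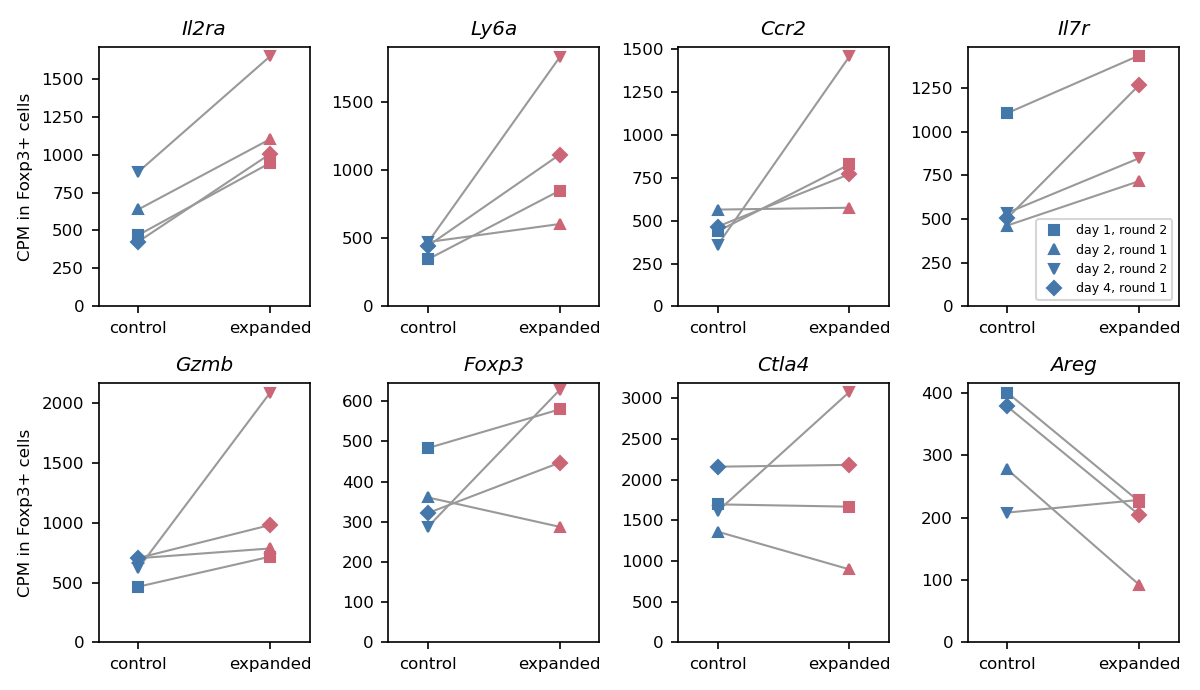
Expression in Foxp3+ cells (CPM, y axis from 0) of 8 genes in control and expanded libraries, joined by day and round. Il2ra, Ly6a, Ccr2, Il7r and Gzmb are higher in the expanded library of all 4 pairs, Foxp3 in 3, Ctla4 in 2 and Areg in 1.

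Slfn2, the gene of lowest p in the higher direction, and Ly6a of the interferon list were both called by DESeq2. Slfn2, a regulator of T cell quiescence, was at 87.5, 222, 271 and 165 CPM in control and 354, 458, 581 and 519 CPM in expanded libraries (log2 fold change 1.37 ± 0.24, adjusted p = 0.380). Ly6a, which encodes the interferon-inducible surface protein Sca-1, was at 345, 472, 469 and 444 CPM in control and 850, 604, 1828 and 1114 CPM in expanded libraries (1.27 ± 0.31, adjusted p = 0.629). Both arms were fully separated for both genes. Next to Slfn2, the genes of lowest p in the higher direction were Adarb1, Sytl3, Flot1 and Il10rb, each higher in 4 of 4 pairs, with log2 fold changes of 2.15, 2.34, 1.90 and 1.76. Il10rb, a chain of the interleukin-10 receptor, was at 9.25 to 27.6 CPM in control and 47.6 to 78.0 CPM in expanded libraries.

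Of 10 tested suppressive effector genes 3 were higher in all 4 pairs and none was lower in all 4, and of 14 tested homing genes 3 were higher and 1 was lower. In the 2 lists that is 30% and 21.4% higher and 0% and 7.14% lower, against 11.5% higher and 7.56% lower over all genes tested. Gzmb was at 465, 703, 618 and 705 CPM in control and 716, 785, 2085 and 980 CPM in expanded libraries (log2 fold change 0.77 ± 0.30, adjusted p = 0.736). Each expanded library was above all 4 controls. Ccr2 was at 438, 564, 357 and 465 CPM in control and 828, 575, 1457 and 771 CPM in expanded libraries (0.92 ± 0.31, adjusted p = 0.682). Its arms did not overlap either, though in day 2, round 1 the pair differed by little. Il7r, the interleukin-7 receptor that supports T cell survival, was at 1105, 463, 535 and 505 CPM in control and 1435, 717, 848 and 1266 CPM in expanded libraries (0.69 ± 0.23, adjusted p = 0.668). The control library of day 1, round 2 lay within the expanded range. Il10 was at 26.4 to 55.3 CPM in control and 24.4 to 139 CPM in expanded libraries, higher in 3 of 4 pairs. Areg went the other way, with 401, 278, 208 and 378 CPM in control and 226, 92.6, 229 and 205 CPM in expanded libraries (log2 fold change -0.82 ± 0.29, adjusted p = 0.728). It was lower in 3 of 4 pairs. Il1rl1, Gata3 and Penk, further genes of tissue regulatory T cells, had log2 fold changes of 0.15 ± 0.21, -0.44 ± 0.32 and -0.80 ± 0.87 (SE), and Jag1 was too low to be tested, with 38 UMIs over the 8 libraries.

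Several lists leaned to one side while none had a called gene. Over all genes tested the median was -0.02, with 2037 of 4231 positive. In all 4 pairs, 11.5% of all tested genes were higher and 7.56% were lower. In the interferon response list 11 of 12 tested genes had a positive fold change with a median of 0.83, but only Ly6a was higher in all 4 pairs, and Ifi27l2a reached 3723 CPM in 1 expanded library against 365 to 858 in the others. In the NF-kappaB and TNF receptor list 11 of 13 were positive (median 0.39). Nfkb2, Nfkbia, Traf1 and Tnfrsf1b were higher in all 4 pairs, and Rel, a subunit needed for Foxp3 induction, was lower in all 4, at 518 to 668 CPM in control and 332 to 483 CPM in expanded libraries. In the interleukin-2 and STAT5 list 9 of 11 were positive (median 0.35), with Il2ra, Il2rg, Stat5b and Socs1 higher in all 4 pairs. The shares of the interferon, NF-kappaB and interleukin-2 lists higher in all 4 pairs were 8.33%, 30.8% and 36.4%, and Rel made 7.69% of its list. In the homing list 11 of 14 were positive (median 0.40), and in the suppressive effector list 7 of 10 (median 0.21).

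The heat shock, immediate early, glycolysis and hypoxia, and cell cycle lists leaned lower. All 7 tested heat shock genes had negative fold changes (median -0.44), and Hspa1a, Hsp90aa1, Hspe1 and Hspd1 were lower in all 4 pairs. Over all genes tested, 2194 of 4231 were negative and 7.56% were lower in all 4 pairs. Hspe1, a mitochondrial chaperonin, was at 198, 694, 641 and 222 CPM in control and 128, 448, 76.2 and 124 CPM in expanded libraries. Its arms overlapped through day 2, round 1. Of 14 tested immediate early genes 12 were negative (median -0.29), of 9 glycolysis and hypoxia genes 7 (median -0.33) and of 13 cell cycle genes 9 (median -0.30). No immediate early or cell cycle gene was lower in all 4 pairs. Of the glycolysis and hypoxia genes, 2 were lower and 1 was higher in all 4. The metallothionein genes Mt1 and Mt2, which bind zinc, were lower in all 4 pairs, with log2 fold changes of -1.21 and -1.43. These turned to 0.10 and 0.14 without called doublets, while Mt1 was at -1.45 without the cells that carried RNA of other types, and without a filter on low counts both genes were called lower (edgeR, adjusted p = 0.00908 and 0.00894). The cold-inducible RNA-binding protein genes Rbm3 and Cirbp were higher in all 4, Rbm3 at 703 to 1013 CPM in control and 1257 to 1880 CPM in expanded libraries. The tissue-repair list was near balance, with 5 positive and 6 negative (median -0.16).

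**Figure D4:**
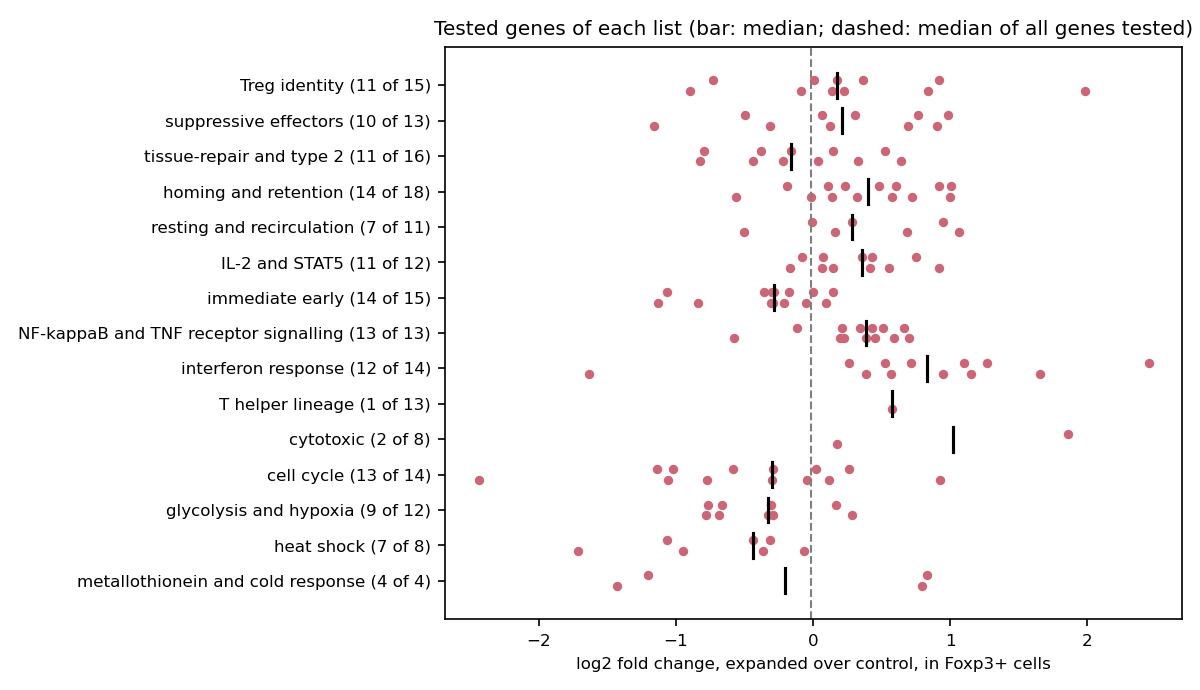
Log2 fold change of expanded over control in Foxp3+ cells (x axis) for each tested gene of 15 lists (rows, with tested of listed genes), with the list's median as a bar and the median over all tested genes as a dashed line. Interferon response genes lie mostly to the right, with a median of 0.83, and heat shock genes to the left, with a median of -0.44, and no gene is called.

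Among the genes with the lowest p in the lower direction were genes known from fibroblasts. Tnfaip6, which encodes a hyaluronan-binding protein, was at 401, 27.8, 23.1 and 183 CPM in control and 40.8, 9.75, 0 and 4.76 CPM in expanded libraries (log2 fold change -3.47, adjusted p = 0.0828). Adamts4 and the collagen gene Col1a2 were also lower in 4 of 4 pairs, as were Camk2n1 and Fam162a. The summed level of 8 fibroblast markers moved the same way: 15078, 20909, 443 and 2479 CPM in control and 5413, 400, 76.2 and 109 CPM in expanded libraries, with all 8 markers detected in both arms. Of control members, 6 with at least 20 UMIs of these markers held 87.7% of their UMIs, and of expanded members 5 such cells held 95.5%. Of these cells, 5 of the 6 control and 2 of the 5 expanded ones were called doublets. A further difference lay in cells with none of these UMIs, which were 12 of 159 control and 99 of 166 expanded members. Of the keratinocyte markers, 8 of 8 were detected in each arm, at 69.4 to 2304 CPM in control and 28.6 to 1579 CPM in expanded libraries. Macrophage markers (8 and 7 of 8 detected, C1qa at 0 in expanded libraries) lay at 27.8 to 1980 and 9.75 to 976 CPM, and dendritic cell markers (7 of 8 in each arm, with Flt3 at 0 in control and Itgax at 0 in expanded libraries) at 305 to 6254 and 234 to 424 CPM. Trdc was at 0 in both arms by the rule.

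Without the 20 members that had at least 20 UMIs over the fibroblast, keratinocyte, dendritic or macrophage list, edgeR called 6 of 3694 genes. Ly6a and Slfn2 were higher, with log2 fold changes of 1.57 ± 0.29 and 1.56 ± 0.29 (adjusted p = 0.0347 for both), and Col1a1, Col1a2, Col3a1 and Sparc were lower. Il2ra was then at 0.94 (adjusted p = 0.142) and Tnfaip6 at -2.81 (adjusted p = 0.316). This setting was chosen after the values were seen. The part of fibroblast RNA in the other differences was not tested.

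**Figure D5:**
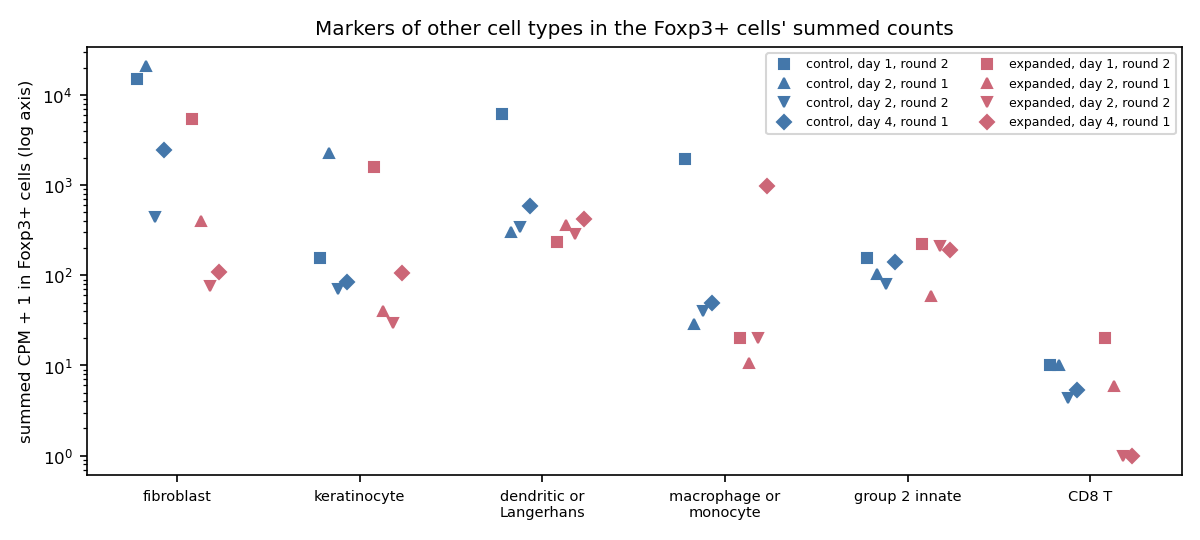
Summed CPM + 1 (log axis) of marker lists of other cell types in the Foxp3+ cells of each library, control and expanded side by side. The fibroblast list spans 443 to 20909 CPM in control and 76.2 to 5413 CPM in expanded libraries, while the CD8 T cell list stays under 20 CPM.

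Whether expansion acted differently on regulatory and conventional T cells was tested with an interaction term. No gene of 4945 was called by edgeR (0%), with 231 at an unadjusted p under 0.05, and DESeq2 called 0. On simulated counts only 8% of genes with a true log2 difference of 1 and 57% of those with 2 were recovered. This test could thus miss most differences. The simulation had the limits named above for the comparison between arms. Among the 5 genes of lowest p in the positive direction were Il2ra and Gbp3. Il2ra in conventional T cells was at 253, 467, 295 and 244 CPM in control and 113, 280, 107 and 201 CPM in expanded libraries. It was thus lower in the expanded library of each pair, whereas in the members it was higher in each. The interaction was 1.79 ± 0.38 on the log2 scale (unadjusted p = 0.000467, adjusted 0.461). Gbp3 was at 106, 83.3, 297 and 222 CPM in control members and 343, 268, 590 and 314 CPM in expanded members. In conventional T cells it was at 58.5, 79.8, 103 and 65.2 CPM against 45.5, 36.8, 71.5 and 21.7 CPM (interaction 1.86 ± 0.40, adjusted p = 0.461). Il2ra was called in 3 of 16 other settings: in thinned cells, without a filter on low counts, and without cells that carried RNA of other types. The other genes of lowest p in the positive direction were Mgp, Plac8 and S100a9, whose member sums were at 0 in 6, 5 and 4 of the 8 libraries. Genes of low p in the negative direction included Postn, Guk1, Abcb1a and Atp5g1.

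The members also differed among themselves. Il1rl1 was detected in 246 of 325 members, Gzmb in 172, Ccr7 in 127 and Areg in 115. Klrg1, a receptor of differentiated effector cells, was detected in 44.3% of members with Il1rl1 and in 21.5% of those without. Members with Il1rl1 were slightly deeper, with a median of 3934 against 3534 UMIs. Areg was detected in 38.2% of members with Il1rl1 and in 26.6% of those without, and Gata3 in 53.3% and 40.5%. Ccr7 was about as frequent in both, at 38.6% and 40.5%. Gzmb was found in 53.9% of members with Areg and in 52.4% of those without. These shares are descriptions over cells that share libraries and mice, and depth adds to each detection, so no test was made.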

How the data were processed

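Per the submitters' processing notes, the authors made the deposited UMI counts per gene and barcode with Cell Ranger 6.1.2 on mm10. The values are raw counts without normalization, and the annotation version was not given in the sources used here. Kept barcodes had at least 200 genes, at least 500 UMIs and no more than 10% of UMIs from mitochondrial genes. Of 32285 gene rows, 78 share a symbol with another row, Aldoa among them, and are not reported. Mice were assigned with Seurat 5.3.0 (HTODemux, quantile 0.99) from the hashing counts, which gave 95.0% of hashed members a mouse. Doublets were kept in the main analysis: 20 members were called by hashtags or Scrublet. Scrublet marked under 0.5% of cells in 4 libraries and probably missed doublets there. These were control day 2, round 1 and the expanded libraries of day 2 and day 4, so doublet calling was uneven between the arms. Counts of members and conventional T cells were summed per library with at least 10 cells and tested with edgeR 4.0.16 (filterByExpr, TMM, quasi-likelihood, Benjamini-Hochberg) or DESeq2 1.42.0 in R 4.3.3. Day was a covariate between arms, and library was a block between kinds of cell. The scripts were tested on simulated counts. Shares were compared by exact permutation over libraries, or over mice within day and round with 100000 resamples where exact enumeration was too large. Same-numbered rounds are taken as pairs because the labels name the number a sequencing round. Detection shares and intervals cover counting error only. Named genes were those of largest called change in a constant direction, or of lowest p where under 5 were called, and the best expressed members of each list. The members, gene lists and tests were chosen with earlier results of these data known. Sequences were not needed for any comparison, and some genes that the rule names are not reported here.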

Additional observations from a re-analysis of the deposited data

Results flagged for a closer look

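In 7 of 92 groups of 4 to 7 values, 1 sample lay far from the others by Dixon's test, where chance flags about 1 in 20 groups. All 7 concerned levels in the regulatory T cells' summed counts. For Sytl3, control day 2, round 1 was at 0 CPM, against 18.4 to 21.7 in the other controls. For Col1a2, expanded day 1, round 2 was at 918 CPM, against 4.76 to 19.5. Control day 1, round 2 was at 916 CPM for Il1rl1, against 549 to 596, and at 1105 CPM for Il7r, against 463 to 535. For Ifi27l2a, expanded day 2, round 2 was at 3723 CPM, against 365 to 858. For Hspe1 and Hspd1, expanded day 2, round 1 was at 448 and 478 CPM, against 76.2 to 128 and 76.2 to 133.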

How the results depend on the processing

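The member shares of gated T cells and of all cells kept their direction over libraries, with p above the threshold, in all settings tried, and the replicate block by day and round gave a sign-flip p of 0.0625 and 0.188. For the cell cycle share that p was 0.750. The mouse comparison passed at 10.4 points in thinned cells, 8.18 with the hashtag ratio rule and 9.18 without the mouse of most T cells. The cell cycle share's difference was -0.951 points with 1 UMI and -2.77 to 11.5 when single libraries were left out. Genes called between arms numbered 4 with DESeq2, 96 without a filter on low counts, 3 in sums per mouse (H2-Ab1, H2-Eb1 and H2-Aa), 6 without cells carrying RNA of other types, 0 to 1 with single libraries left out (H2-Aa without either day 4 library, Tnfaip6 without expanded day 2, round 1) and 0 with the replicate block of pairs, where 351 had an unadjusted p under 0.05. Members against conventional T cells gave 30 calls with Cd4-positive and 1852 with all Foxp3-negative comparison cells, 488 with no replicate block, and 358 to 514 with single libraries left out. The interaction gave 40 calls without a filter, 1 in thinned cells, 3 without cells of other RNA and 0 to 3 with single libraries left out (Il1b, Cd14 and Lyz2 without control day 1, round 2). The cause of these shifts was not tested. Between arms these log2 fold changes, none called, turned sign: Ctla4 to -0.32 without expanded day 2, round 2 (-0.32 to 0.37 with single libraries left out) and -0.16 in mouse sums, Penk to 3.16, Ccr7 to 0.16 and Ifi27l2a to -0.0559 in mouse sums, Gata3 to 0.18 with at least 2 Foxp3 UMIs, Il1rl1 to -0.0138 without the mouse of most T cells, and Mt1 and Mt2 to 0.10 and 0.14 without doublets. Low member counts limit all single-gene values.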
